A study of Mus musculus with 4 samples.

Results

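HOX genes encode homeodomain transcription factors and were taken here as every gene of mouse build GRCm38 named Hoxa, Hoxb, Hoxc or Hoxd with a number. The rule found 39 genes, with 87 quantified transcripts, of 35580 genes in the deposited RNA sequencing tables. The cells came from the stromal vascular fraction of mouse subcutaneous fat, which is what remains of the tissue once adipocytes are removed and holds fibroblast-like stromal cells, vascular cells and immune cells. All mice were wild type (WT) and of the C57BL/6 strain, with age and sex not given in the sources used here. Cells were divided into Mmp3-negative and Mmp3-positive cells with a reagent given only as a code, and each group had 2 libraries, numbered by set. Nothing in the labels states that the sets were separate animals, so the errors measure the spread between these libraries, which may be technical.

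In mammals the HOX genes lie in 4 clusters, and genes of the same paralogue number in different clusters descend from 1 ancestral gene. During development the genes are switched on in the order in which they lie along the chromosome, low numbers towards the head and high numbers towards the tail and the ends of the limbs. Fibroblasts and adipose stromal cells of the adult keep much of this pattern, so that the set of active HOX genes differs between body sites and between fat depots. HOX proteins bind DNA together with cofactors of the PBX and MEIS families, and the clusters are held open by trithorax proteins or silenced by Polycomb proteins.

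The clusters span chromosome 6 from 52155590 to 52260880 (HOXA, 11 genes), chromosome 11 from 96194316 to 96368256 (HOXB, 10 genes), chromosome 15 from 102921103 to 103036852 (HOXC, 9 genes) and chromosome 2 from 74668310 to 74765142 (HOXD, 9 genes). The libraries held 17693755 to 20286221 estimated counts, and the HOX genes together held 3555 to 5182 of them. Mmp3, the gene that names the groups, stood at 106 and 130.5 CPM in Mmp3-negative libraries, against 4161 and 3409 CPM in Mmp3-positive ones. CPM are counts relative to library size after TMM scaling (edgeR), and here compare libraries. All 12 of the stromal fibroblast markers had counts in every library. Their summed level was 21200 and 30350 CPM in Mmp3-negative and 29270 and 37030 CPM in Mmp3-positive libraries, and that of 6 adipocyte markers was 17.9 to 34.3 CPM.

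Central genes held most of the counts, and the genes with few or no counts were mainly those of the highest numbers. Of the 39 genes, 11 had at least 10 counts in every library and 12 in 3 of the libraries. A further 8 had no count in any library. Hoxa11 and Hoxa13, Hoxb13, Hoxc12, and Hoxd1, Hoxd3, Hoxd12 and Hoxd13 made up those 8. A count of 0 allows up to 3 counts, between 0.153 and 0.173 CPM, for counting error only. The 0 of Hoxd3 is less certain, since 61.1% of its 31-base words also occur in other genes, among them Hoxd4. At the posterior end, counts in every library reached Hoxa10 in HOXA, Hoxc10 in HOXC, Hoxd8 in HOXD and, with 4 to 13 counts, Hoxb8 in HOXB. Hoxa10 had 4 counts in Mmp3-positive 2. Those and its 167 counts in Mmp3-negative 1 lay on a processed transcript, with 0 on its coding transcripts. Beyond these last genes of each cluster, Hoxb9 had 9 counts, 1, 0 and 0 in Mmp3-negative 1 and 2 and Mmp3-positive 1 and 2. In the same order of libraries, Hoxc11 had 0, 15, 60 and 0, Hoxc13 had 0, 2, 0 and 0, Hoxd9 had 3, 3, 49 and 0, Hoxd10 had 1, 0, 0 and 0, and Hoxd11 had 0, 0, 2 and 12.

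**Figure D1:**
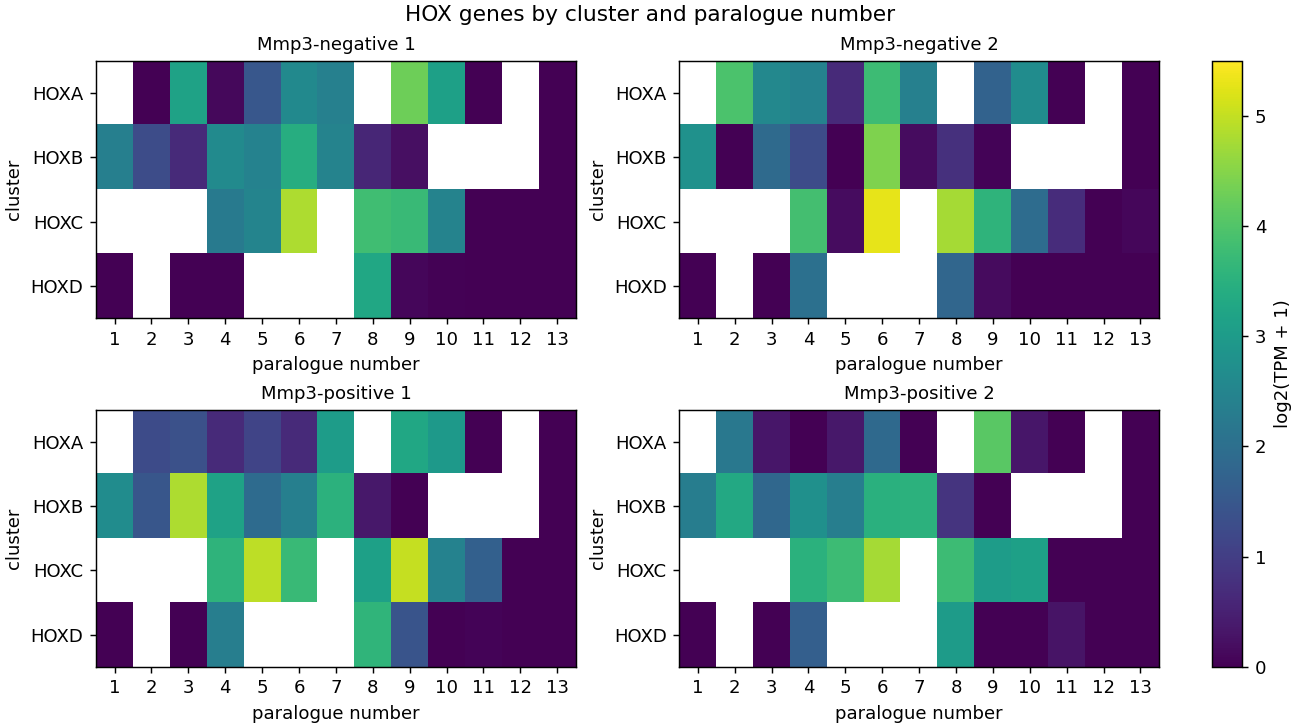
Level of the HOX genes in each library, by cluster (rows) and paralogue number (columns), as log2(TPM + 1) on a linear colour scale, where TPM is the level per transcript length and white marks a number with no gene or no value shown in that cluster. Colour is concentrated in paralogue numbers 4 to 10, and numbers 12 and 13 are dark in all 4 panels.

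To show the sequence around start sites at these ends, the windows of the last gene with counts in every library and of the next gene are given for HOXA and HOXD, from RefSeq on GRCm38.p6. Each runs from 250 bases before to 50 after a start site and is printed 5′ to 3′ along the gene's strand. Hoxa10 has 2 windows, chr6:52234890-52235189 and chr6:52240805-52241104, and Hoxa11 has chr6:52245761-52246060, all on the minus strand. Hoxd8 has chr2:74704365-74704664 and Hoxd9 chr2:74697513-74697812, both on the plus strand. Capitals mark each CG dinucleotide, the base pair step that carries DNA methylation in mammals and that is dense in CpG islands.
Hoxa10, first window: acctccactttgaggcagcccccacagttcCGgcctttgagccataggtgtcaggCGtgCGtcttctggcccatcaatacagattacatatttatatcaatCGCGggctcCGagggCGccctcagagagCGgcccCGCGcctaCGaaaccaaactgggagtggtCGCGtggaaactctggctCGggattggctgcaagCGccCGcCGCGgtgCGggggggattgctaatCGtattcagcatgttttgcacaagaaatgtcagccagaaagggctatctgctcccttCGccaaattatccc
Hoxa10, second window: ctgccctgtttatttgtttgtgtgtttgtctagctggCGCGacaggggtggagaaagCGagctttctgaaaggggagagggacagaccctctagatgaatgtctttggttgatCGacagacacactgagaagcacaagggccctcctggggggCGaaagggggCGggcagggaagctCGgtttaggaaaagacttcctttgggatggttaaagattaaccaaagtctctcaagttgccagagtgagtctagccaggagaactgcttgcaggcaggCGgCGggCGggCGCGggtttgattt
Hoxa11: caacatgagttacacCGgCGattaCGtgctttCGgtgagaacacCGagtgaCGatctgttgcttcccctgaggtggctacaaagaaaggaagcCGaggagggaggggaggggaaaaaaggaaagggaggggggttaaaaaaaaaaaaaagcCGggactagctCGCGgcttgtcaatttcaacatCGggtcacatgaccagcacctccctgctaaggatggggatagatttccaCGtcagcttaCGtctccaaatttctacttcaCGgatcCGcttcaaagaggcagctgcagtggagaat
Hoxd8: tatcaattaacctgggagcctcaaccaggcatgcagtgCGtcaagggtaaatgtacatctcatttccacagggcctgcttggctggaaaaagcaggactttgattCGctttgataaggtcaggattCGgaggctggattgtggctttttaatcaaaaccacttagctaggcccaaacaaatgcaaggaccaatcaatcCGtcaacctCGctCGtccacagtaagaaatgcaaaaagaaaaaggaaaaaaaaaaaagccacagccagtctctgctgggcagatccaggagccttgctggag
Hoxd9: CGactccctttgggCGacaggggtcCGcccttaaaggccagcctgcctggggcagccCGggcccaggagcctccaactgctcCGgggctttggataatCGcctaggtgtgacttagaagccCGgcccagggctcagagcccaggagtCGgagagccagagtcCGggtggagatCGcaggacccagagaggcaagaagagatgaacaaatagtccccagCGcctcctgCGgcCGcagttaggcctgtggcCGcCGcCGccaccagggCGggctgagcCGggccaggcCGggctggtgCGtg

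The Hoxa10 windows held 21 and 12 CG dinucleotides and the Hoxa11 window 15. The Hoxd8 window held 6 and the Hoxd9 window 20. Of the 39 HOX genes, 22 matched the promoter table, with 24 windows. Hoxc4 was the only HOXC gene among them, so Hoxc6, Hoxc8 and Hoxc9 are not covered. Windows of genes too low to be tested had a median of 21 CG dinucleotides (10 windows, 4 to 45), and windows of tested genes a median of 11 (14 windows, 4 to 29). Most of the former lay in HOXD and most of the latter in HOXA, so this is also a contrast between clusters. Over all 32851 windows the median was 7. The 2 sets overlapped: the Hoxa5 and Hoxa6 windows, of tested genes, held 29 and 26, and 1 of the Hoxd11 windows, of a gene not tested, held 4. The letters CCAAT, on either strand, were in 62.5% of the HOX windows and in 37.4% of all windows, and TATAAA in 16.7% and 13.6%. These matches describe the sequence and were not tied to binding or methylation data.

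HOXC genes gave about as much HOX RNA per length as the other clusters together. In TPM, which divide by transcript length and so allow genes to be compared, HOXC made up 43.6% and 50.9% of all HOX RNA in Mmp3-negative libraries, against 47.45% and 48.6% in Mmp3-positive ones. HOXD made up 3.18% to 8.11%. By position along the body axis, central genes (numbers 4 to 8) took 53.5% to 70.7%, posterior genes (9 to 13) 12.4% to 28.7% and anterior genes (1 to 3) 9.40% to 20.1%, with overlapping ranges in the Mmp3-negative and Mmp3-positive libraries. The order of the 3 axial classes was the same in 3 libraries, and in Mmp3-negative 2 the anterior class (16.9%) stood above the posterior (12.4%).

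The HOX gene with the highest TPM was Hoxc6 (ENSMUSG00000001661), a central gene of trunk identity, with a mean of 26.0 TPM over the 4 libraries, but on protein-coding transcripts only it stood at 14.1 TPM, behind Hoxc9 at 15.5. Hoxc9 followed with 15.5 TPM and Hoxc8 with 14.8 TPM, both genes of thoracic identity. Next came Hoxc5 (11.9 TPM), Hoxa9 (11.4), Hoxb6 (11.2), Hoxc4 (9.67), Hoxb3 (8.29), Hoxd8 (7.33), Hoxb7 (6.43), Hoxa6 (5.24) and Hoxb4 (5.12). Each gene in this order differed from the next by less than the larger of their SDs over the 4 libraries. Several TPM values rested on short transcripts. Hoxc5 stood at 30.1 TPM in Mmp3-positive 1 with 313 counts and at 4.58 TPM in Mmp3-negative 1 with 311 counts. Per length of the longest coding transcript, Hoxc6 came 1st, Hoxc8 2nd, Hoxc9 3rd, Hoxc4 4th and Hoxb6 5th, while Hoxc5 came 9th and Hoxa9 15th. At the level of 1 TPM, Hoxa4 (1.26) lay just above and Hoxa5 (0.969) and Hoxc11 (0.705) just below.

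**Figure D2:**
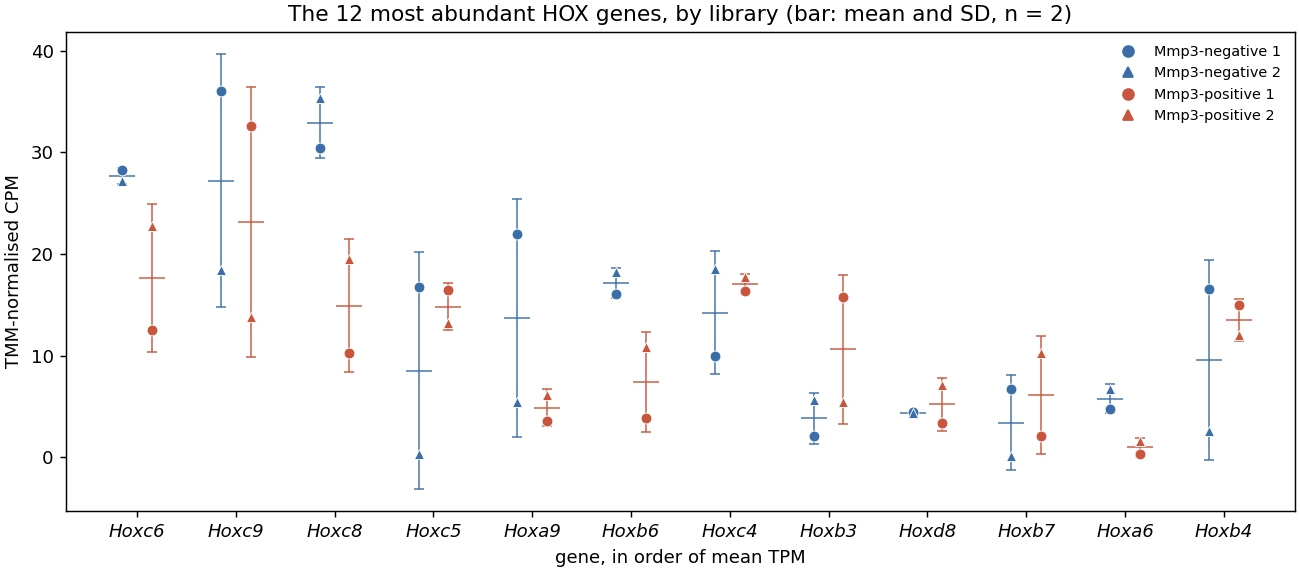
TMM-normalised CPM of the 12 HOX genes with the highest mean TPM, by library, with the mean and SD of each group (n = 2). Both Mmp3-negative points lie above both Mmp3-positive points for Hoxc6, Hoxc8, Hoxb6 and Hoxa6, and the groups overlap for the other 8.

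Mmp3-positive and Mmp3-negative cells were then compared gene by gene. Of the 39 HOX genes, 26 passed the filter on low counts and 0 passed the threshold of edgeR's quasi-likelihood test in either direction (adjusted p between 0.681 and 0.999, 0 with an unadjusted p under 0.05, where 8.87% of all genes had one). Over all 14185 genes tested, 0.00705% were called higher and 0.0141% lower. The DESeq2 Wald test also called 0 HOX genes (lowest adjusted p 0.0722, 2 with an unadjusted p under 0.05), against 3.11% of its genes higher and 3.66% lower, and limma on log2(TPM + 1) called 0 of 23 (1 under 0.05). Left out in turn, each library also gave 0 HOX genes by edgeR, while without Mmp3-negative 1 the share of all genes called was 1.44% higher and 0.602% lower, and without Mmp3-negative 2 it was 1.45% and 0.709%. The median log2 fold change of Mmp3-positive over Mmp3-negative was -0.39 over the 26 genes and 0.02 over all genes tested, but with limma the median of the HOX genes turned to 0.495 (0.306 over all genes). The fits were imprecise: the median standard error was 1.71 on the log2 scale for the HOX genes and 0.825 for all genes tested. In CPM, both Mmp3-positive libraries lay below both Mmp3-negative libraries for 7 of the 26 genes, where 17.3% of all tested genes did so, and above them for 1, where 22.5% did so. In TPM, 4 of the 26 genes were lower and 4 higher, and the shares over all genes were not computed on that scale. These counts, and the later statements of groups apart in TPM, therefore have no background beside them. TPM were not scaled by TMM, and the limma median over all genes on that scale was 0.306. In bulk RNA, fewer cells of a type and less RNA per cell cannot be told apart.

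Markers of other cell types stood at other levels in the groups. The 10 mural markers summed to 749 and 657 CPM in Mmp3-negative and 97.05 and 96.2 CPM in Mmp3-positive libraries, with 7 to 10 of the 10 detected in each library. The 10 endothelial markers summed to 286 and 197 CPM against 111 and 110.3 CPM (8 or 9 of 10 detected), and the 10 macrophage markers to 283 and 127 CPM against 33.8 and 30.3 CPM (6 to 9 of 10). Of the tested markers, 9 of 10 mural, 7 of 8 endothelial and 8 of 8 macrophage ones had a log2 fold change below 0, where 48.9% of all tested genes did. The threshold was passed by 0 of them. Lmod1 of the mural list and Adgre1 of the macrophage list were at 0 counts in both Mmp3-positive libraries. These genes passed the filter only through the Mmp3-negative libraries, so their direction was fixed in advance. Rgs5 of the mural list (log2 fold change 0.425) and Cdh5 of the endothelial list (0.455) lay above 0. Of the macrophage markers not tested, Cd163 had its 177 counts in Mmp3-negative 1 alone and Mrc1 its 29 counts in Mmp3-positive 2 alone. The part of these cells in the HOX values was not tested.

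In HOXA the groups lay apart in the same direction on both scales, and in CPM by the largest ratio of the 4 clusters. Its genes summed to 71.8 and 58.5 CPM in Mmp3-negative libraries, against 27.7 and 15.8 CPM in Mmp3-positive ones. The groups did not overlap, and the means of 65.1 ± 9.39 and 21.8 ± 8.42 CPM (SD, n = 2) stood in a ratio of 2.99. In TPM the sums were 45.5 and 51.7 against 32.4 and 24.4, a ratio of 1.71, nearer to 1 than those of HOXB (0.579) and HOXD (0.548). HOXA took 25.7% and 28.4% of HOX CPM in Mmp3-negative and 14.8% and 8.24% in Mmp3-positive libraries. The fitted log2 fold change was below 0 for 8 of its 9 tested genes, where 48.9% of all tested genes were below 0, with a median of -1.49. Of the 9, 3 (Hoxa3, Hoxa6 and Hoxa7) kept their direction in all alternatives, while Hoxa2, Hoxa4, Hoxa5 and Hoxa10 turned in at least 1 fit with a library left out and Hoxa9 turned with limma. With 2 libraries against 2, an exact permutation test of such a sum cannot fall below the usual threshold, and none is given.

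HOXD, the least expressed cluster, lay the other way. Its sums were 4.64 and 7.61 CPM in Mmp3-negative and 11.1 and 11.8 CPM in Mmp3-positive libraries (6.13 ± 2.10 and 11.4 ± 0.464 CPM, SD, n = 2), and 8.71 and 5.77 against 16.9 and 9.51 TPM. HOXB overlapped in CPM, with 71.3 and 35.6 against 51.1 and 65.9, and did not overlap in TPM, with 30.8 and 31.5 against 60.3 and 47.2. HOXC stood at 131.8 and 104.5 against 97.2 and 98.7 CPM and overlapped in TPM (65.8 and 92.1 against 98.96 and 76.8). All HOX genes together summed to 279.6 and 206 CPM in Mmp3-negative and 187 and 192 CPM in Mmp3-positive libraries, and the order of the group means turned in TPM (166 ± 21.4 against 183 ± 35.8, SD, n = 2). HOXA and HOXD were the clusters whose groups did not overlap, in the same direction, on both scales. Without Hoxd4, whose sequence is shared with other genes, the HOXD sums overlapped in TPM (8.71 and 2.66 against 12.8 and 7.32). In CPM they did not (4.64 and 4.50 against 6.05 and 7.69). Of the 6.05 CPM in Mmp3-positive 1, however, 2.58 came from Hoxd9, which was not tested. Hoxd8 stood at 3.37 CPM in that library, below both Mmp3-negative libraries (4.42 and 4.32), and at 7.08 CPM in Mmp3-positive 2.

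**Figure D3:**
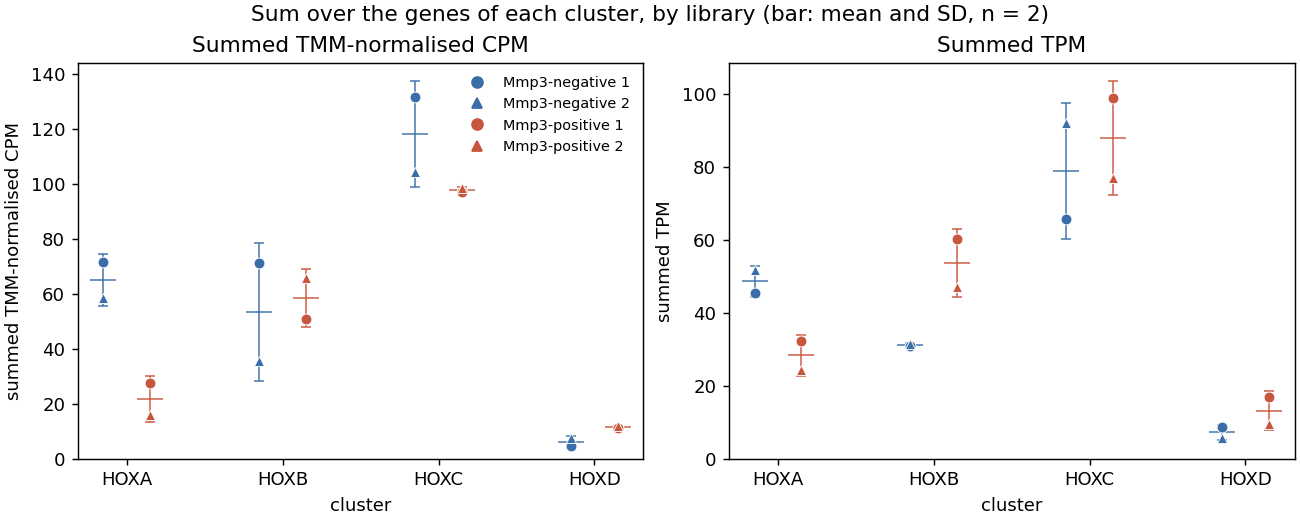
Sum over the genes of each HOX cluster in each library, in TMM-normalised CPM (left) and TPM (right), both axes starting at 0, with the mean and SD of each group (n = 2). HOXA is lower and HOXD higher in both Mmp3-positive libraries on both scales, while HOXB and HOXC overlap on 1 of them.

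Within HOXA the anterior gene Hoxa3 (ENSMUSG00000079560, chromosome 6, 52169062 to 52213336, minus strand), which patterns the pharyngeal arches, had the fold change farthest from 0 of all HOX genes. It stood at 21.1 and 9.11 CPM in Mmp3-negative and at 2.79 and 0.458 CPM in Mmp3-positive libraries. Both Mmp3-positive libraries were below both Mmp3-negative ones, and the log2 fold change of -3.21 had a standard error of 1.56 (edgeR adjusted p = 0.681). Of its 31-base words, 8.24% also occur in transcripts of other genes, so part of its counts is uncertain. Hoxa6, a central gene, stood at 4.75 and 6.75 against 0.316 and 1.63 CPM (log2 fold change of -2.55 with an SE of 2.03, adjusted p = 0.921 by edgeR). Hoxa7, a central gene, stood at 10.5 and 5.94 against 4.0 and 0 CPM, also with no overlap, but in TPM (4.30 and 4.26 against 7.19 and 0) the groups overlapped.

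Most other HOXA genes overlapped between groups. Hoxa9, a posterior gene also active in blood stem cells, stood at 22.0 and 5.42 against 3.58 and 6.16 CPM, and its high value came from Mmp3-negative 1 alone. Hoxa4 stood at 0.162 and 4.73 against 0.632 and 0 CPM. Hoxa5, which patterns the cervical and upper thoracic region and the lung, stood at 4.15 and 0.750 against 1.58 and 0.407 CPM. Neither gene separated the groups. Hoxa2, an anterior gene, stood at 0 and 17.4 against 1.74 and 4.99 CPM, and Hoxa10, the last HOXA gene with counts, at 9.01 and 3.98 against 6.58 and 0.204 CPM.

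The central genes of number 6 were below in Mmp3-positive cells in all 3 clusters that carry one, without any of them passing the test. Hoxc6 stood at 28.3 and 27.2 CPM in Mmp3-negative and 12.5 and 22.8 CPM in Mmp3-positive libraries (log2 fold change of -0.65 with an SE of 0.61, adjusted p = 0.962 by edgeR). Hoxb6 stood at 16.1 and 18.2 against 3.89 and 10.8 CPM (log2 fold change of -1.22 with an SE of 1.03, adjusted p = 0.935 by edgeR), but its groups overlapped in TPM. With Hoxa6, the group of number 6 summed to 49.1 and 52.1 against 16.7 and 35.2 CPM and to 42.4 and 71.4 against 16.9 and 39.0 TPM, with no overlap on either scale.

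Hoxc8 (ENSMUSG00000001657, chromosome 15, 102990607 to 102994111, plus strand) had the smallest standard error of the HOX genes. It stood at 30.5 and 35.4 CPM in Mmp3-negative and 10.3 and 19.6 CPM in Mmp3-positive libraries, as 565, 614, 195 and 384 counts. The group means were 32.9 ± 3.48 and 14.9 ± 6.57 CPM (SD, n = 2), and the log2 fold change was -1.14 with a standard error of 0.605 (edgeR adjusted p = 0.738). Its paralogue Hoxd8 stood at 4.42 and 4.32 against 3.37 and 7.08 CPM, with overlap. The third gene of number 8, Hoxb8, had at most 13 counts in a library. Together the genes of number 8 summed to 22.2 and 29.1 against 19.0 and 20.5 TPM, also without overlap. Numbers 5 and 7 did not overlap in TPM, with Mmp3-positive above, but did in CPM, and number 4 the reverse. The TPM of numbers 5 and 7 include short processed transcripts of Hoxc5 and Hoxb7.

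Hoxc9 and Hoxc4, also among the most abundant genes, did not separate the groups. Hoxc9 stood at 36.0 and 18.4 against 32.6 and 13.8 CPM, with both high values in libraries numbered 1. Hoxc4, which lies at the anterior end of HOXC, stood at 9.93 and 18.5 against 16.3 and 17.7 CPM. Hoxc5 stood at 16.8 and 0.288 against 16.5 and 13.2 CPM, so that 1 Mmp3-negative library stood apart from the other 3. In TPM both Mmp3-positive libraries (30.1 and 12.7) lay above both Mmp3-negative ones (4.58 and 0.138). In the Mmp3-positive libraries 26.7 and 8.62 TPM of it lay on a processed transcript of 615 bases. On its coding transcript Hoxc5 stood at 4.58 and 0.138 against 3.34 and 4.12 TPM, with overlap. Hoxc10, towards the posterior end, stood at 10.4 and 3.75 against 5.95 and 11.7 CPM.

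Hoxb2, Hoxb3, Hoxb4 and Hoxb7 had fold changes above 0 with wide errors. Hoxb3 stood at 2.05 and 5.59 CPM in Mmp3-negative and 15.8 and 5.45 CPM in Mmp3-positive libraries (log2 fold change of 1.47 with an SE of 1.47, adjusted p = 0.977 by edgeR). Hoxb2, a gene of hindbrain segment identity, stood at 2.75 and 0 against 2.42 and 12.6 CPM. Hoxb4, studied for its part in blood stem cell growth, stood at 16.6 and 2.59 against 14.9 and 12.1 CPM, and Hoxb7 at 6.69 and 0.115 against 2.05 and 10.2 CPM. All 4 overlapped between groups in CPM. In TPM both Mmp3-positive libraries lay above both Mmp3-negative ones for Hoxb2, Hoxb4 and Hoxb7. On coding transcripts alone, Hoxb2 (1.418 and 0 against 1.406 and 8.15 TPM) and Hoxb7 (4.49 and 0.136 against 0.484 and 10.5 TPM) overlapped. In Mmp3-positive 1, 10.12 TPM of Hoxb7 came from 31 counts on a processed transcript of 370 bases. Hoxb5 stood at 15.5 and 0 against 3.74 and 7.28 CPM.

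Hoxb1 had the evenest values among the tested genes of HOXB. It stood at 10.6 and 8.48 CPM in Mmp3-negative and 8.0 and 6.72 CPM in Mmp3-positive libraries (log2 fold change of -0.37 with an SE of 1.20, adjusted p = 0.999 by edgeR), just without overlap, though its groups overlapped in TPM. Hoxd4 stood at 0 and 3.11 against 5.05 and 4.07 CPM and was the 1 tested HOX gene with, in CPM, both Mmp3-positive libraries above both Mmp3-negative ones. However, 49.1% of its 31-base words occur in transcripts of other genes, among them Hoxd3 and Gm28230, a gene within the HOXD span, so its counts cannot be assigned to it alone. In TPM its groups overlapped.

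**Figure D4:**
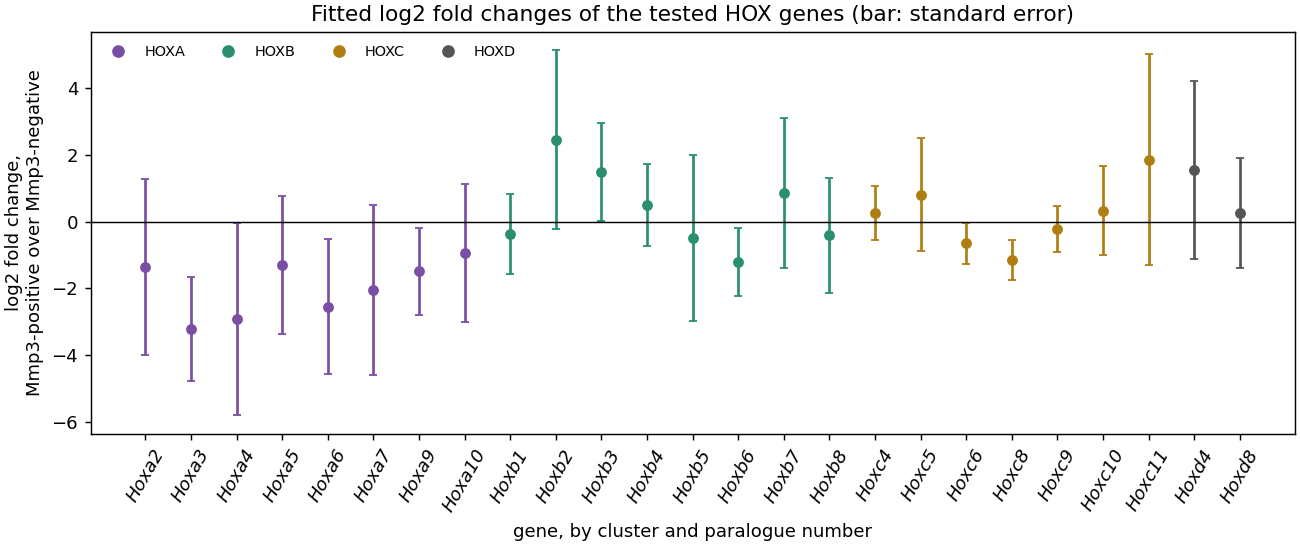
Fitted log2 fold change of Mmp3-positive over Mmp3-negative cells for 25 of the 26 tested HOX genes, ordered by cluster and paralogue number, with the standard error as bars. The 8 HOXA points lie below 0, and the other clusters have points on both sides of 0 or, in HOXD, 2 points above it.

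Replicates of the same group often disagreed on single HOX genes. In the Mmp3-negative pair 5 of the 26 tested genes (19.2%) had 0 counts in 1 library and at least 50 in the other, among them Hoxa2, Hoxb2, Hoxb5 and Hoxd4. Hoxa2 had 0 and 302 counts and Hoxb5 had 287 and 0. In the Mmp3-positive pair 2 genes (7.69%), Hoxa7 and Hoxc11, showed this. Among the 8089 tested genes in the same CPM range (0.51 to 25.2 on average) 19.2% showed it for the Mmp3-negative pair and 7.17% for the other, so HOX genes were close to other genes of their level. The median absolute difference between replicates, on the log2(CPM + 1) scale, was 1.12 for HOX genes and 1.25 for genes in that range in the Mmp3-negative pair, and 0.88 and 0.752 in the Mmp3-positive pair.

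**Figure D5:**
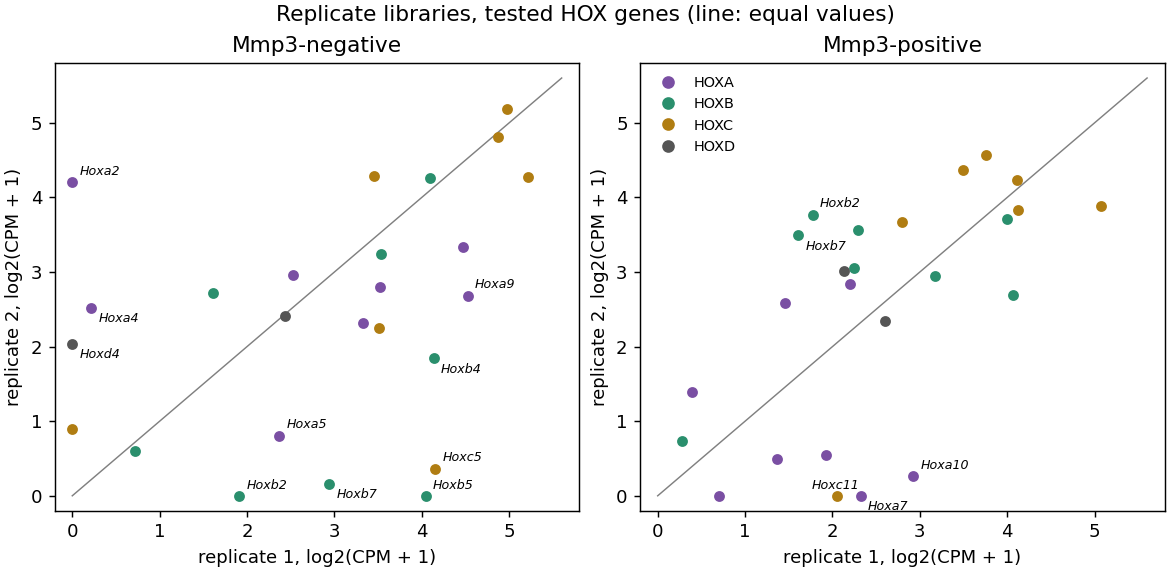
Replicate 1 against replicate 2 for 25 of the 26 tested HOX genes in Mmp3-negative (left) and Mmp3-positive cells (right), as log2(CPM + 1), coloured by cluster, with names where the pair differs by more than 1.5. Several genes lie on an axis, at 0 in 1 library, among them Hoxa2 and Hoxb5 on the left.

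Transcripts were also uneven. Of the 19 tested genes with more than 1 transcript, 7 had the same leading transcript in every library with counts and 12 did not. Protein-coding transcripts held 81.5% and 89.0% of HOX counts in Mmp3-negative and 88.2% and 88.3% in Mmp3-positive libraries. Of Hoxb5, all 287 counts in Mmp3-negative 1 were placed on a retained-intron transcript, while all 71 counts in Mmp3-positive 1 were placed on the coding transcript. Other annotated genes within the cluster spans numbered 46, of which 7 encode miRNAs, and 4 had quantified transcripts. Gm28308, which lies in the HOXA span, was the tested one. It had 0 counts in both Mmp3-negative libraries, against 72 and 31 in the Mmp3-positive ones (edgeR adjusted p = 0.480), through which alone it passed the filter. Its mean CPM in the Mmp3-positive libraries was 16 times the mean floor of 3 counts per library, which allows for counting error only. Gm28308 shares 13.7% of the 31-base words of Hoxa2 and is also among the many genes that share words with Hoxa3. The part of this sharing in the counts was not tested.

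The cofactors with which HOX proteins bind DNA, listed together with the related TGIF genes, were detected in every library in 10 or all of 11 cases. All 11 PBX, MEIS, PKNOX and TGIF genes were tested, 0 passed the threshold, 4 had a log2 fold change above 0 and 7 below, and the median was -0.20. Tgif1, a repressor of the same homeodomain class, stood at 88.1 and 63.0 CPM in Mmp3-negative and 94.2 and 83.7 CPM in Mmp3-positive libraries. Meis2, a HOX cofactor, stood at 32.8 and 52.8 against 38.7 and 27.2 CPM. Neither separated the groups.

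Chromatin regulators of the clusters went both ways. Of 28 listed genes, mostly trithorax and Polycomb genes but also Ctcf, 27 were tested and 0 passed. Of the 27, 12 lay above 0 and 15 below, and the median log2 fold change was -0.06 (range -1.38 to 2.37). In CPM, both Mmp3-positive libraries lay above both Mmp3-negative ones for 3 of the 27, where 22.5% of all tested genes did so. They lay below for 5, where 17.3% of all tested genes did so. Kmt2d, a histone H3 lysine methyltransferase, stood at 1428 and 1346 against 1356 and 1310 CPM, with overlap. Phc2, a Polycomb subunit, stood at 72.3 and 131.5 against 126 and 102 CPM, with overlap.

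Retinoic acid and caudal factors regulate HOX genes in the embryo. Of 17 genes listed for these factors, with the retinoid-responsive Rarres2 among them, 11 were tested and 0 passed. Of the 11, 3 lay above and 8 below 0, with a median of -0.21. The caudal genes Cdx1, Cdx2 and Cdx4 had 0 counts in every library. Rarres2, which encodes the retinoid-responsive adipokine chemerin, stood at 198 and 268 against 490 and 296 CPM (log2 fold change 0.75, edgeR adjusted p = 0.530), without overlap, and Rarg, a retinoic acid receptor, at 55.4 and 105 against 60.9 and 71.0 CPM.

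Other transcription factors of position and of limb or trunk identity went both ways. Of 36, 28 were tested and 0 passed, with 14 above and 14 below 0 and a median of -0.01. Prrx1, a limb and mesenchyme factor, stood at 432 and 701 against 643 and 763 CPM and Irx1 at 67.8 and 99.2 against 57.2 and 118 CPM, both with overlap. In CPM, both Mmp3-positive libraries lay above both Mmp3-negative ones for 4 of the 28, where 22.5% of all tested genes did so. For 7 of the 28 they lay below, where 17.3% did so. Meox2 and Isl1, chosen after their values were seen, had 0 counts in both Mmp3-negative libraries. They passed the filter only through the Mmp3-positive libraries. Meox2, a factor of somites and limb muscle, had 122 and 458 counts there, and Isl1, a factor of motor neurons, hindlimb and heart, had 79 and 99. Their mean CPM there stood at 88.8 and 27.5 times the mean floor of 3 counts per library, which allows for counting error only. Both genes had an edgeR adjusted p of 0.480 and did not pass.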

How the data were processed

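RNA was taken from Mmp3-negative and Mmp3-positive stromal vascular cells (2 libraries each), depleted of ribosomal RNA and made into strand-specific libraries, per the labels' protocols. The authors deposited estimated counts and TPM per transcript from kallisto 0.45.0 on GRCm38, per the submitters' processing notes and the file headers. The transcript set, strand setting and trimming are not given in the sources used here. Estimated counts were summed over the transcripts of each gene by GENCODE M21 (113580 of 115270 transcripts matched, 35580 genes) and rounded. Genes were filtered with filterByExpr (minimum count 10), scaled by TMM and tested with edgeR 4.0.16 (R 4.3.3) by its quasi-likelihood test with Benjamini-Hochberg adjustment at 0.05, checked on simulated data. DESeq2 1.42.0 and limma 3.58.1 on log2(TPM + 1) were alternatives. TPM compared genes, and TMM-normalised CPM was the main scale between libraries. Group values in TPM, given beside CPM, were not scaled by TMM. With limma on log2(TPM + 1) the median log2 fold change over all genes was 0.306, against 0.0193 in the main fit. Named genes were the 12 HOX genes highest in mean TPM, those whose groups did not overlap with a mean of at least 1 TPM, the 2 on either side of 1 TPM, and, in other lists, 2 per list by level. The remaining HOX genes are given briefly, and 1 tested gene, counted in the totals, is not reported here. Members and lists were chosen with earlier results of these data known.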

Additional observations from a re-analysis of the deposited data

How the results depend on the processing

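No HOX gene passed the threshold under any alternative run (lowest adjusted p 0.0722). Of the 26 tested genes, 10 kept their direction in all alternatives, namely Hoxa3, Hoxa6, Hoxa7, Hoxb1, Hoxb2, Hoxb3, Hoxb6, Hoxc6, Hoxc8 and Hoxd4. The common biological coefficient of variation between replicates was 95.5%, and genes near the floor of 3 counts were limited by depth as well.

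Over all genes, the counts called higher and lower were 4 and 23 with no count filter, 452 and 532 with DESeq2, and 0 and 0 with limma. The lower count was 4 with the replicate block and 0 with a length offset or with protein-coding transcripts only. Leaving out 1 library gave 1 to 237 genes higher and 1 to 116 lower. Same-numbered libraries were not shown to be pairs (correlation of deviations 0.0243), and the block turned the log2 fold change of Hoxa2 to 2.025 and of Hoxb5 to 2.81. The length offset gave 0.0038 for Hoxb5 and 0.35 for Hoxc9. With limma, where the median over all genes was 0.31 in place of 0.02 and that over 23 HOX genes 0.495 in place of -0.39, Hoxa9 stood at 0.68, Hoxb5 at 0.91 and Hoxc9 at 0.37. With protein-coding transcripts only, Hoxa10 stood at 3.32, Hoxb5 at 9.12 and Hoxc5 at -0.056. The cause was not tested.

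With 1 library left out, and the lone library of a group assumed to vary like the other group, 15 HOX genes had another sign at least once. For 14 of them the log2 fold changes ran from -2.37 to 9.01 (Hoxa2), -8.51 to 0.93 (Hoxa4), -2.57 to 0.40 (Hoxa5), -4.95 to 0.015 (Hoxa10), -0.29 to 2.37 (Hoxb4), -1.487 to 9.685 (Hoxb5), -0.73 to 5.65 (Hoxb7), -1.445 to 0.18 (Hoxb8), -0.126 to 0.78 (Hoxc4), -0.177 to 5.65 (Hoxc5), -0.98 to 0.33 (Hoxc9), -0.25 to 1.23 (Hoxc10), -6.02 to 7.91 (Hoxc11) and -0.38 to 0.69 (Hoxd8). Of the list genes, Meis2 ran from -0.685 to 0.0068, Phc2 from -0.208 to 0.662, Rarg from -0.673 to 0.253, Prrx1 from -0.00037 to 0.703 and Irx1 from -0.552 to 0.497. The HOXA ratio below ran from -0.991 to -0.587.

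Among the sums, the log2 ratio of Mmp3-positive over Mmp3-negative for HOXA was -0.775 in TPM, -1.58 in CPM and -1.67 in CPM per kilobase, an alternative chosen after seeing the data. For HOXB it was 0.788 in TPM, 0.129 in CPM, 0.117 per kilobase and 0.494 on protein-coding transcripts. HOXC stood at 0.155 in TPM and -0.345 per kilobase. Central genes stood at -0.0276 in TPM, -0.397 in CPM and -0.523 per kilobase, and all HOX genes at 0.144, -0.357 and -0.415. The HOXA share of HOX RNA was 22.4% in TPM, 19.3% in CPM, 19.2% per kilobase, 27% without Hoxc6 and 19.8% to 24.7% with 1 library left out. The HOXB share was 24.1%, and 26.1% in CPM, 26% per kilobase, 26.5% on protein-coding transcripts, 28.4% without Hoxc6 and 22.2% to 26.4% with 1 library left out. Without Hoxc6 the HOXC share was 37.9%, and per kilobase the HOXD share was 3.62%. The HOXD ratio was 0.823 without Hoxd4, a sum also added after seeing the data. On protein-coding transcripts only, Hoxb7 stood at 3.9 TPM in place of 6.43, and per kilobase Hoxd8 stood at 1.82. The median of the cofactor list, -0.20, became 0.067 with the block, 0.032 with limma and 0.015 without Mmp3-negative 2.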
